A study of Mus musculus with 20 samples.

Results

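The Period and cryptochrome genes are the repressors of the circadian clock, and here they are Per1, Per2, Per3, Cry1 and Cry2. They were chosen by gene symbol: every probe set whose single symbol in the platform annotation was 1 of these names was taken, which gave 5 of 18193 genes and 12 of 45101 probe sets. A probe set is the group of short probes that reports 1 transcript on the array. Of the 12 probe sets, 9 passed the filter on low signal, against 22519 probe sets in the whole table: 1 of 1 for Per1, 2 of 3 for Per2, 4 of 6 for Per3, and 1 of 1 each for Cry1 and Cry2.

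The study ran 20 Affymetrix arrays on livers of male C57BL/6J mice, after long whole-body exposure to 137Cs gamma rays. Exposure began when the mice were 8 weeks old and ran for 22 hours a day in every irradiated group. Experiment 1 lasted 485 days, with a control pool, a low group at 0.042 mGy/day (20.6 mGy in total), a medium group at 0.858 mGy/day (416 mGy) and a high group at 16.6 mGy/day (8030 mGy). Experiment 2 lasted 401 days, with a control pool, a low group at 0.05 mGy/day (20 mGy in total), a medium group at 1.00 mGy/day (401 mGy) and a high group at 20.0 mGy/day (8015 mGy). Each irradiated group had 3 mice on 1 array each, and each control was 1 array of pooled liver RNA from unirradiated mice, 3 in experiment 1 and 6 in experiment 2, so the controls have no spread of their own. No genotype beyond this strain appears in the labels, and livers were collected as soon as the exposure was over. The hour of collection and the length of housing of the control mice are not given in the sources used here.

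In the clock of mammals, CLOCK and BMAL1 (the product of Arntl) bind E-box sequences and switch on the Per and Cry genes, and the PER and CRY proteins then enter the nucleus and shut down CLOCK and BMAL1. The RNAs of these genes therefore rise and fall over the day in mouse liver, where the Per genes also respond to glucocorticoids, feeding and temperature. PER1 and PER2 hold the repressor complex together, PER3 is less needed for the rhythm, and CRY1 and CRY2 are the strong repressors, with CRY1 acting late in the cycle.

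Promoter sequences of the members are shown because the clock acts on them through short letter patterns that can be read directly. RefSeq windows on GRCm38.p6, from 250 bases before to 50 bases after the annotated start, matched 4 of the 5 genes; Per2 had none in the table used. Capitals mark matches to CACGTG (the E-box), AACGTG (an E-box variant), TTATGTAA and TTATGCAA (D-boxes, read by DBP, TEF, HLF and NFIL3) and TGACGTCA (the cAMP response element), searched on both strands.
Per1 (chr11:69098699-69098998, plus strand): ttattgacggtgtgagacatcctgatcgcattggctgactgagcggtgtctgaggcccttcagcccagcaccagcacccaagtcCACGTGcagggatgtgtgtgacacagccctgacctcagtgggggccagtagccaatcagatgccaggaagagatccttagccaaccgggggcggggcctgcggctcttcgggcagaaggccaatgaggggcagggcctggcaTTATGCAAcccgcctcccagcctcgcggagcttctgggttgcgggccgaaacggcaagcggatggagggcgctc
Per3 (chr4:151044616-151044915, minus strand): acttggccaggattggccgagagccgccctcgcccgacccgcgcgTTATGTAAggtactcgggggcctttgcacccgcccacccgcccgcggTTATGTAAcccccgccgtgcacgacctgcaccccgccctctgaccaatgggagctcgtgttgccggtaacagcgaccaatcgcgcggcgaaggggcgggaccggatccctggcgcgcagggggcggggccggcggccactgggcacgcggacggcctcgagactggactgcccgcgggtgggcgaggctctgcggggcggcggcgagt
Cry1 (chr10:85185005-85185304, minus strand): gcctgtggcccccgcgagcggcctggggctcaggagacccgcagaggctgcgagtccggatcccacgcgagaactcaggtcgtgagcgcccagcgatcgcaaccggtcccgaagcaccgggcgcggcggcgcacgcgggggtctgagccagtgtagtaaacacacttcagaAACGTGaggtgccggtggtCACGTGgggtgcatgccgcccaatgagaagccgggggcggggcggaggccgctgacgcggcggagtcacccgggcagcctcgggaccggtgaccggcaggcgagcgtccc
Cry2 (chr2:92434020-92434319, minus strand): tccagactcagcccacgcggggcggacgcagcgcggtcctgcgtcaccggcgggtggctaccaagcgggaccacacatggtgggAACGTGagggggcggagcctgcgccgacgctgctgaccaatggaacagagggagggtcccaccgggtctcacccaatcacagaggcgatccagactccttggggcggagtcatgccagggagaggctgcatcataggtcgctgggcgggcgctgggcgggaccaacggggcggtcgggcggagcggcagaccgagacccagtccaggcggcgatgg
The Per1 window held CACGTG beginning 166 bases before the start and TTATGCAA beginning 24 bases before it. A second Per1 start in the table (chr11:69099902-69100201) held none of these patterns. Both Per1 windows lie inside the gene as annotated (chr11:69095108-69109965), and the table had no window at its outer 5' end. In the Per3 window TTATGTAA stood at 205 and at 158 bases before the start, with no E-box letters. Cry1 held CACGTG at 60 and AACGTG at 79 bases before the start, and Cry2 held AACGTG at 166 bases before it. No match overlapped another, and TGACGTCA was in none of these windows. Among 32851 windows of the same length, CACGTG was found in 7.15%, AACGTG in 4.68%, TTATGTAA in 0.938%, TTATGCAA in 0.743% and TGACGTCA in 1.79%. A match describes the letters and is not evidence of a bound site.

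Hepatocyte markers were high in every library. Of 10 hepatocyte markers, 9 were on the array and all 9 passed the filter, with albumin (Alb) at signals from 51943 to 85184. No contrast between a dose-rate group and the control pools moved any Per or Cry probe set past the threshold, an adjusted p of 0.05 in limma over all 22519 probe sets tested. With 1 array a pool, these contrasts are less precise than those between dose-rates, and all 3 of them share the same 2 pools. Values below are MAS5 signal on the scale the authors set, and differences are on the scale of log2(signal + 7.12), which understates the change of low signals. Levels are compared within a probe set only.

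Per1 encodes a scaffold of the repressor complex, and its RNA also responds quickly to glucocorticoids. It gave the lowest estimates of the 5 genes at the medium and high dose-rates. In experiment 1 the single Per1 probe set (1449851_at) had a signal of 209.7 in the control pool, then 208, 104 and 134 in the low mice, 75.6, 23.2 and 101 in the medium mice, and 33.4, 7.85 and 62.7 in the high mice. In experiment 2 it had 288 in the control pool, then 213, 391 and 289 in the low mice, 157, 255 and 223 in the medium mice, and 185, 156 and 215 in the high mice. Every medium and high mouse lay below the pool of its experiment, and the high mice of experiment 1 lay below all low mice of that experiment. The group means of Per1 were 149 ± 53.3, 66.6 ± 39.7 and 34.7 ± 27.4 at low, medium and high in experiment 1, and 298 ± 89.4, 212 ± 49.9 and 185 ± 29.6 in experiment 2 (SD, n = 3 each). The order high below medium below low in both experiments was held by 1 of the 9 member probe sets, Per1, against 3.67% of all probe sets, and the opposite order by 0 of 9, against 3.96%.

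**Figure D1:**
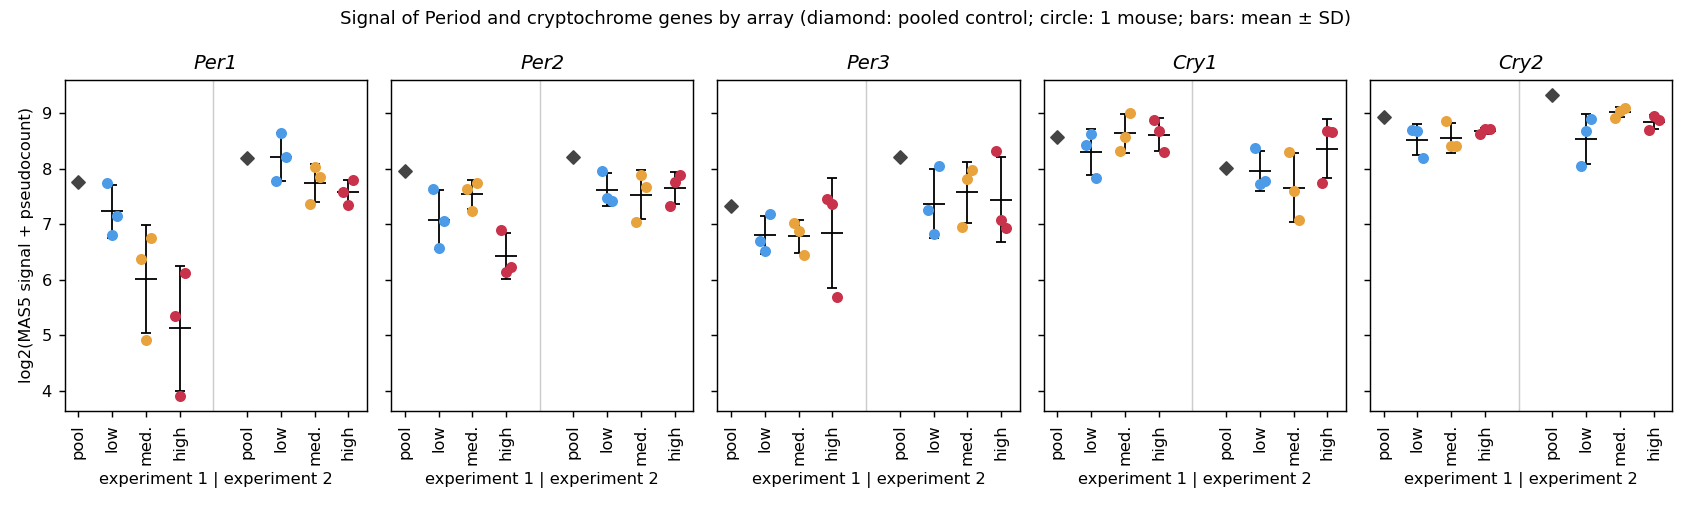
The plot shows log2(signal + 7.12) of the main probe set of each gene on all 20 arrays, by dose-rate within experiment 1 (left of each panel) and experiment 2 (right), with diamonds for the pooled controls, circles for single mice and bars for the mean ± SD of 3 mice. Per1 reached its lowest signal, 7.85, in a high mouse of experiment 1, while Cry1 overlapped between the groups.

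Against the control pools, Per1 differed by -1.63 ± 0.53 on the log2 scale at the high dose-rate (SE; adjusted p = 0.359, unadjusted p = 0.00581 by limma), a ratio of 0.323, with a 95% interval from -2.74 to -0.53. It was below the own pool in 6 of 6 high mice, with a mean difference of -2.64 in experiment 1 and -0.63 in experiment 2. The medium difference was -1.10 ± 0.53 (adjusted p = 0.766), also below the pool in 6 of 6 mice, and the low difference was -0.26 ± 0.53 (adjusted p = 1), below in 4 of 6. Without the pool of experiment 1 the high difference was -0.99, and without the pool of experiment 2 it was -2.27, so the size rests on which pool is used. It also rests on low signals, since all 3 high mice of experiment 1 lay below the signal of 75.5 that the filter asks of a mean, and the lowest, 7.85, lay close to the 7.12 added before taking logs. With 1 added in place of 7.12 the high difference was -1.81, and with 25.9 added it was -1.32. The background for this call was 0.0577% of all probe sets in high against control, 0.0355% in medium against control and 0.00444% in low against control, and 0 of 9 members were called in each. In bulk liver, fewer cells of a type and less RNA per cell cannot be told apart.

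Between dose-rates the pools do not enter the estimates. The model of dose level and experiment was fitted to all arrays, so the pools do enter the errors, intervals and p-values of these contrasts. Per1 at high against low differed by -1.37 ± 0.38 (adjusted p = 0.167, unadjusted p = 0.00149 by limma), a ratio of 0.387 with an interval from -2.15 to -0.59, and all 6 high mice lay below the low mean of their experiment. The difference was -2.11 in experiment 1 and -0.64 in experiment 2, and the interaction with experiment was 1.47 ± 0.70 (adjusted p = 0.709). Medium against low was -0.84 ± 0.38 (adjusted p = 0.6), and high against medium was -0.53 ± 0.38 (adjusted p = 0.999). The background was 0.0178% of probe sets in high against low, and 0 of 9 members were called there, with 1 of 9 at an unadjusted p under 0.05 against 10.3%. In medium against low and in high against medium limma called 0 probe sets of all, where 7.88% and 3.95% had an unadjusted p under 0.05, against 2 of 9 and 0 of 9 members. The summed signal of the hepatocyte markers in experiment 1 ran from 431208 to 485655 in high mice and from 383629 to 403617 in low mice, with the pool at 392273, while in experiment 2 it ran from 402885 to 454332 in high mice and from 431283 to 452398 in low mice. Its part in the Per1 values was not tested. No member had groups that stayed apart in both experiments: 0 of 9 were lower at high against low (0.502% of all probe sets), medium against low (0.444%) or high against medium (0.191%), and 0 of 9 were higher (0.688%, 0.493% and 0.240%).

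Ordered by mean log2 signal, the Per1 groups ran from low of experiment 2 through the pools of experiments 2 and 1, then medium and high of experiment 2, to low, medium and high of experiment 1. Only low and medium of experiment 1 were neighbours farther apart (1.22) than the larger SD of the pair. Here and below, a pool has no SD of its own and was judged by that of its neighbour alone, and where both pools stood next to each other they were not judged.

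Per2 is a core member of the repressor complex and a scaffold for its kinases. Its main probe set (1417602_at) had a signal of 243 in the control pool of experiment 1, then 191, 88 and 125 in the low mice, 192, 145 and 208 in the medium mice, and 112, 63.4 and 68.2 in the high mice. Its experiment 2 signals were 288 in the control pool, then 242, 172 and 165 in the low mice, 124, 228 and 198 in the medium mice, and 154, 209 and 230.3 in the high mice. All 18 irradiated mice lay below the pool of their experiment, and 3 of the 9 member probe sets did so (Per2 1417602_at, Per3 1421087_at and Cry2), against 0.999% of all probe sets. None lay above the pool in all 18, against 1.03%. High against control was -1.04 ± 0.35 (adjusted p = 0.376, unadjusted p = 0.00693), medium against control -0.55 ± 0.35 (adjusted p = 0.833) and low against control -0.73 ± 0.35 (adjusted p = 1). The dose-rates were not ordered for Per2: high against low was -0.31 ± 0.25 (adjusted p = 0.707), at -0.66 in experiment 1 and 0.04 in experiment 2. Neighbours in the order of group means were apart by more than the larger SD at pool of experiment 1 over high of experiment 2 (0.31) and at low over high of experiment 1 (0.66).

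A second Per2 probe set (1457350_at) did not follow the first. Its signal in experiment 1 was 86.9 in the control pool, 11.4, 9.35 and 111 in the low mice, 129.6, 71.6 and 114 in the medium mice and 75.2, 33.2 and 44.4 in the high mice. The experiment 2 values were 179.7 in the control pool, 151, 189.7 and 217 in the low mice, 263, 278 and 182 in the medium mice, and 114, 204 and 177 in the high mice. High against control was -0.46 ± 0.56 (adjusted p = 0.873), and medium against low was 1.04 ± 0.39 (adjusted p = 0.535). Over the 18 irradiated mice centred on their group means the correlation of the 2 probe sets was 0.188, a description of arrays that share their scaling. The third Per2 probe set (1417603_at), from 6.24 to 159, was below the filter. It lay below the own pool in 13 of 18 mice.

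Per3 contributes little to the free-running rhythm in mice and follows it closely in RNA. Its main probe set (1441445_at) had 154 in the control pool of experiment 1, then 97.3, 85 and 138 in the low mice, 123, 111 and 79.9 in the medium mice, and 169, 158 and 44.7 in the high mice. Experiment 2 gave 289 in the control pool, then 146, 106 and 257 in the low mice, 116, 217 and 244 in the medium mice, and 312, 128 and 115 in the high mice. The high mice straddled the pool in both experiments. Differences from control were -0.63 ± 0.44 at high (adjusted p = 0.764), -0.59 ± 0.44 at medium (adjusted p = 0.872) and -0.68 ± 0.44 at low (adjusted p = 1). Only the pool of experiment 2 and the next group, medium of experiment 2, were neighbours apart by more than the larger SD (0.63).

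The Per3 probe sets did not all give the same picture. Probe set 1421087_at lay below the own pool in 18 of 18 mice and gave -0.94 ± 0.35 at high (adjusted p = 0.477, unadjusted p = 0.0144), -0.65 ± 0.35 at medium and -0.65 ± 0.35 at low. Its signal was 138 in the control pool of experiment 1, then 103, 112 and 91.1 in the low mice, 62.7, 136 and 61.4 in the medium mice, and 37.6, 72.7 and 82.2 in the high mice. In experiment 2 it was 213 in the control pool, then 90.3, 91.9 and 166 in the low mice, 127, 145 and 149 in the medium mice, and 118, 109.7 and 134 in the high mice. It was also the only member probe set at least 1.5-fold below the own pool in 6 of 6 high mice, against 0.187% of all probe sets. Probe set 1442243_at gave -0.38 ± 0.34 at high, -0.48 ± 0.34 at medium and -0.67 ± 0.34 at low, and 1458176_at gave -0.63 ± 0.41, -0.46 ± 0.41 and -0.83 ± 0.41 in the same order. Across mice within groups, 1441445_at correlated with 1442243_at at 0.674 and with 1421087_at at -0.0187, as a description over 18 arrays. Between dose-rates, high against low was -0.29 ± 0.25 for 1421087_at (adjusted p = 0.734), 0.29 ± 0.24 for 1442243_at (adjusted p = 0.712) and 0.20 ± 0.29 for 1458176_at (adjusted p = 0.861). The other 2 Per3 probe sets, 1421086_at from 3.2 to 79.7 and 1460662_at from 4.22 to 69.6, were below the filter. At these low signals they did not follow the main probe set. The first lay below the own pool in only 3 of 18 mice and the second in 8 of 18, against 15 of 18 for 1441445_at.

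**Figure D2:**
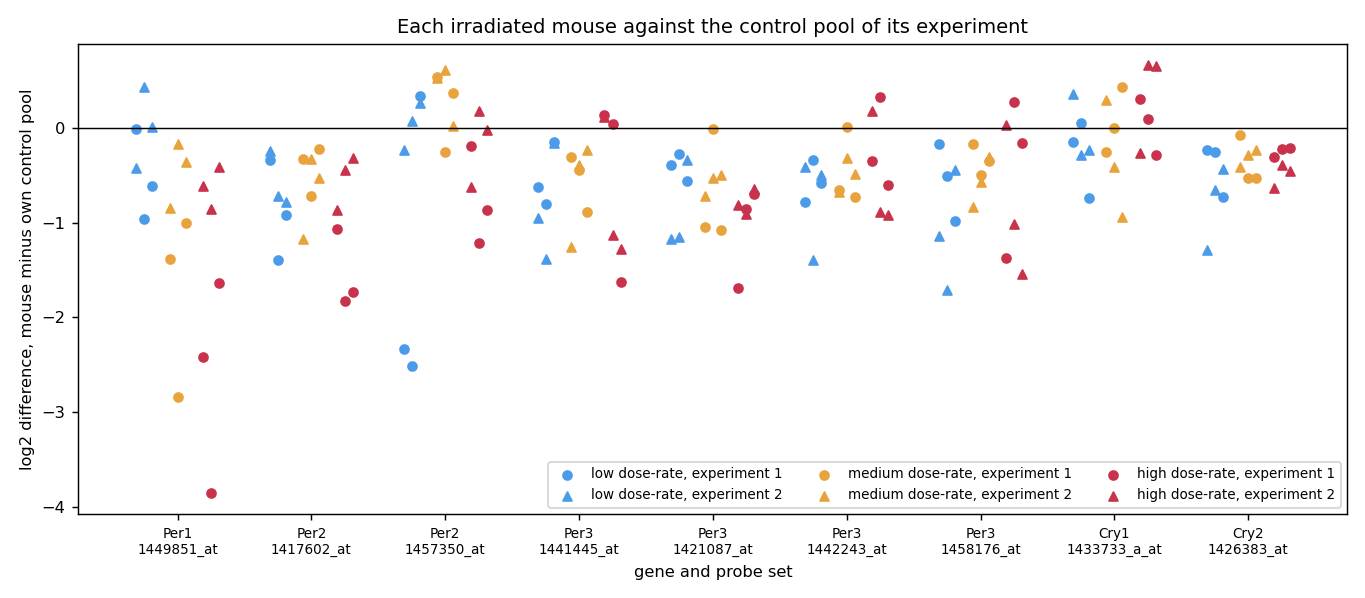
Each point is the log2 difference of 1 irradiated mouse from the control pool of its experiment (y axis) for the 9 probe sets past the filter (x axis), with colour for the dose-rate, circles for experiment 1 and triangles for experiment 2. Per2 1417602_at, Per3 1421087_at and Cry2 lay below 0 in 18 of 18 mice, and Cry1 in 9 of 18.

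Cry1 encodes the repressor that binds late and holds BMAL1 and CLOCK off. Its single probe set (1433733_a_at) had 375 in the control pool of experiment 1, then 337, 389 and 222 in the low mice, 314, 375 and 509 in the medium mice, and 464, 402 and 307 in the high mice. Experiment 2 gave 251 in the control pool, then 324, 205 and 213 in the low mice, 309.8, 186 and 128 in the medium mice, and 207, 401 and 399 in the high mice. The groups overlapped throughout, and no neighbours in the order of group means were apart by more than the larger SD. High against control was 0.19 ± 0.32 (adjusted p = 0.917; interval from -0.47 to 0.86), medium against control -0.15 ± 0.32 (adjusted p = 0.966) and low against control -0.17 ± 0.32 (adjusted p = 1). High against low was 0.36 ± 0.23 (adjusted p = 0.616). Intervals of this width do not show that Cry1 stayed level.

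Cry2 encodes the second cryptochrome, which represses earlier in the cycle. Its single probe set (1426383_at) had 481 in the control pool of experiment 1, then 406, 401 and 288 in the low mice, 457, 332 and 332 in the medium mice, and 387, 412 and 413 in the high mice. In experiment 2 it had 638 in the control pool, then 256, 403 and 468 in the low mice, 478, 522 and 540.0 in the medium mice, and 409, 485 and 464 in the high mice. The pool was the highest array of each experiment. Low against control was -0.60 ± 0.20 (adjusted p = 0.974, unadjusted p = 0.00671), medium against control -0.34 ± 0.20 (adjusted p = 0.82) and high against control -0.37 ± 0.20 (adjusted p = 0.687). High against low was 0.23 ± 0.14 (adjusted p = 0.604). Neighbours farther apart than the larger SD were the pool and medium of experiment 2 (0.31), medium of experiment 2 and the pool of experiment 1 (0.09), and high of experiment 2 and high of experiment 1 (0.16).

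Set side by side, the estimate against control was below 0 for 8 of 9 member probe sets at high, 8 of 9 at medium and 9 of 9 at low, against 48.5%, 49.0% and 50.0% of all probe sets. All 6 mice lay below the own pool for 4 of 9 at high, 6 of 9 at medium and 6 of 9 at low, against 7.73%, 7.63% and 4.83% of all probe sets. The unadjusted p was under 0.05 with a lower estimate for 3, 0 and 2 of 9, against 3.01%, 2.55% and 1.57%. These counts rest on the same 2 pools, and several of the probe sets report the same gene. When each pool was weighted by its number of mice, which takes a pool as that many independent mice, limma called 3 of 9 at high against control (Per2 1417602_at, Per3 1421087_at and Per1, adjusted p 0.0198, 0.0279 and 0.0307) and 1 of 9 at low against control (Cry2, adjusted p 0.0353), among 849 and 121 probe sets over all. The summed signal of the 4 B cell markers on the array, 3 of which passed the filter, was 333 to 620 in the irradiated mice of experiment 1 against 284 in the pool, and 373 to 1049 in those of experiment 2 against 343 in the pool. It moved with the contrast against control, and its part in the values above was not tested. Of the cell type lists summed in the same way, only the B cell list had every irradiated mouse above the pool in both experiments.

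**Figure D3:**
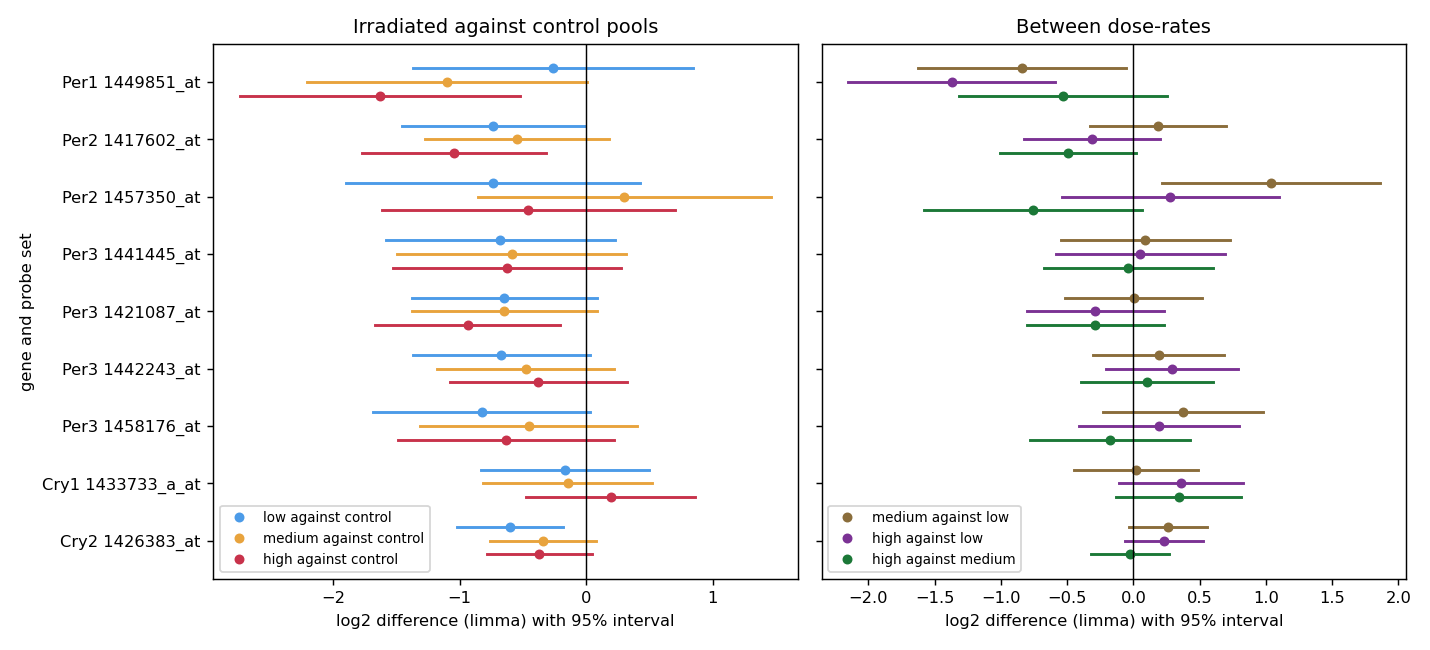
Points are limma log2 differences and lines their 95% intervals (x axis) for the 9 member probe sets (y axis), against the control pools on the left and between dose-rates on the right. Per1 has the lowest estimates, -1.63 at high against control and -1.37 at high against low, and none of the contrasts shown passed an adjusted p of 0.05.

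More member probe sets passed between the experiments than between dose-rates. With dose level held in the model of the 18 irradiated mice, 7 of 9 member probe sets passed in experiment 2 against experiment 1, 6 higher and 1 lower, against 39.2% of all probe sets. The whole array leaned the same way: of all 11216 genes, at 1 probe set a gene, 2914 passed higher and 1555 lower. Per1 rose by 1.72 ± 0.30 (adjusted p = 0.000145), Per2 by 0.59 ± 0.21 at 1417602_at (adjusted p = 0.0289) and by 1.76 ± 0.33 at 1457350_at (adjusted p = 0.000233). Per3 rose by 0.66 ± 0.26 at 1441445_at (adjusted p = 0.0493), by 0.59 ± 0.21 at 1421087_at (adjusted p = 0.033) and by 0.81 ± 0.24 at 1458176_at (adjusted p = 0.0115). Cry1 fell by 0.52 ± 0.19 (adjusted p = 0.033), and Cry2 differed by 0.21 ± 0.12 (adjusted p = 0.161). Per3 1442243_at differed by 0.32 ± 0.20 (adjusted p = 0.224). Leaving out 1 array at a time, the number called ran from 4 to 7, and it was 4 without low mouse 2 or medium mouse 3 of experiment 1, or without low mouse 3, medium mouse 2, medium mouse 3 or high mouse 1 of experiment 2. Gapdh probe sets at the 3' and 5' ends, which report on RNA integrity, gave 3'/5' ratios between 0.871 and 0.993 for experiment 2 and between 0.69 and 0.769 for experiment 1. The same ratio for Actb was higher, between 2.25 and 2.61 for experiment 2 and between 1.85 and 2.15 for experiment 1. Length of exposure, age at collection, dose-rate, RNA quality and any batch go with the experiment and cannot be told apart. The hour of collection is not given for any group. Its part in this comparison and in the contrasts with control was not tested.

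None of the 9 member probe sets passed the interaction with experiment in limma in any of the 6 contrasts of dose level. The backgrounds of these 6 tests were 0.0311% for high against control, 0.0178% for medium against control, 0% for low against control, 0.00444% for high against low, 0% for medium against low and 0% for high against medium. At an unadjusted p under 0.05 the members numbered 1 of 9 in high against low (7.03% of all probe sets) and 1 of 9 in high against medium (4.99%). They numbered 0 of 9 in high against control (5.06%), medium against control (4.20%), low against control (4.47%) and medium against low (8.38%). The members under that p were Per1 in high against low (given above) and Per2 1417602_at in high against medium (1.25 ± 0.44, adjusted p = 0.96), which differed by -1.12 in experiment 1 and 0.13 in experiment 2.

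Other genes of the clock were read from 5 lists, of which 36 genes were on the array and 33 were tested with 1 probe set a gene. None passed in any contrast between dose levels or against control; between experiments 11 were higher and 4 lower in experiment 2, 45.5% of those tested, near the 39.8% over all 11216 genes. The activators, which the Per and Cry proteins restrain, had 3 of 3 estimates above 0 at high, with a median of 0.97. Over all 11216 genes the median was 0.00, with 5650 estimates above 0 and 5566 below. Arntl, which encodes BMAL1, differed by 0.97 ± 0.27 at high (adjusted p = 0.281), above the own pool in 6 of 6 mice, and by 0.71 at medium and 0.56 at low. Of all probe sets, 8.61% lay above the own pool in 6 of 6 high mice. Npas2, which encodes a partner that can stand in for CLOCK, differed by 1.22 ± 0.48 at high (adjusted p = 0.495). The nuclear receptor list had 3 of 3 estimates below 0 at high (median -0.36), with Nr1d2, a repressor of Arntl, at -0.36 ± 0.09 (adjusted p = 0.224) and Nr1d1 at -0.65 ± 0.25 (adjusted p = 0.499). Of 8 output and E-box target genes tested, 5 were below 0 and 3 above 0 at high, with a median of -0.36. The output genes named next are all from those below 0. Usp2, a deubiquitinase, stood at -1.74 ± 0.36 (adjusted p = 0.102) and Tef, a D-box activator, at -0.52 ± 0.12 (adjusted p = 0.14). Dbp, another D-box activator, stood at -1.55 ± 0.36 at high (adjusted p = 0.153), below the own pool in 6 of 6 mice, at -1.34 at medium and at -1.38 at low. Of all probe sets, 7.73% lay below the own pool in 6 of 6 high mice. The 11 kinases and ubiquitin ligases that act on PER and CRY had 5 above and 6 below 0 at high, with a median of -0.01, and the 8 other partners of the complex had 4 above and 4 below, with a median of 0.06. For the 5 Per and Cry genes the medians were -0.63 at high, -0.55 at medium and -0.60 at low, with 4, 5 and 5 of 5 below 0. Of all 11216 genes, 5566, 5472 and 5619 were below 0 in the same order.

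**Figure D4:**
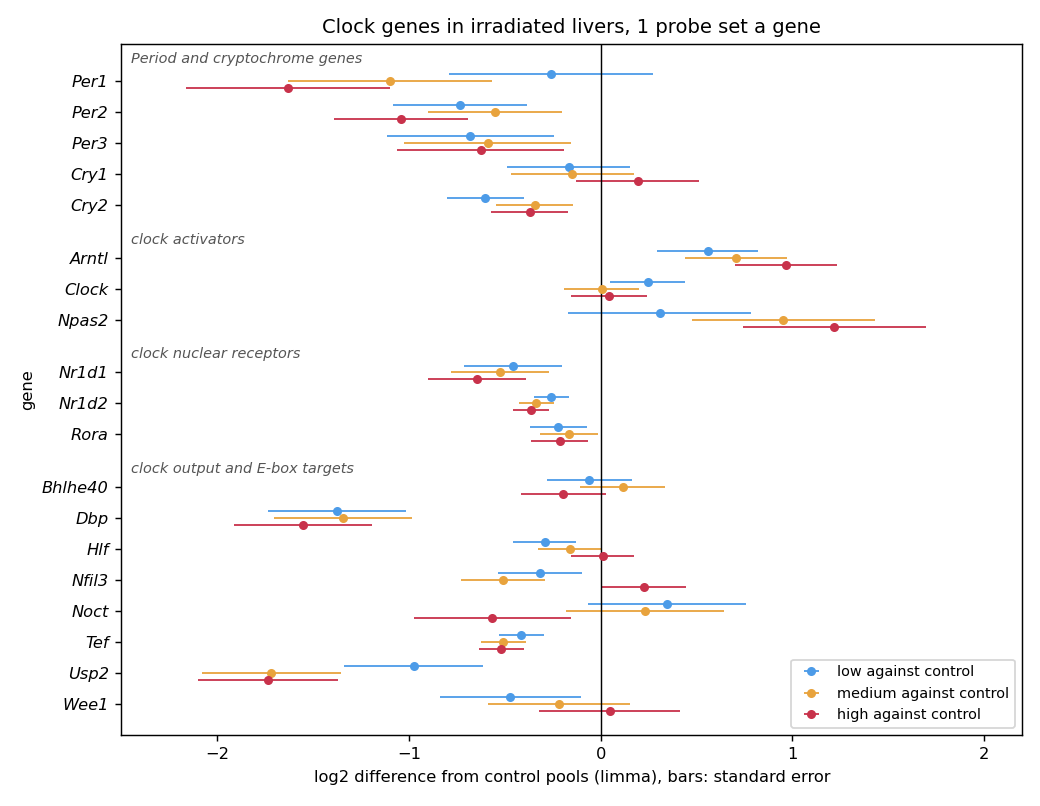
Points are limma log2 differences from the control pools (x axis) with standard errors for the Per and Cry genes, the activators, the nuclear receptors and the outputs (y axis), 1 probe set a gene, coloured by dose-rate. Arntl (0.97 at high) lies to the right of 0 and Usp2 (-1.74 at high) to the left, and none passed the threshold.

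From mouse to mouse within groups the 5 genes showed no relation that passed. Over 18 irradiated mice centred on their group means, 10 pairs were examined with permutation tests. Per1 and Per2 gave r = 0.446 (permutation p = 0.115, adjusted 0.684) and rho = 0.509 (permutation p = 0.0704, adjusted 0.525). Their r was 0.566 within experiment 1 and 0.177 within experiment 2, and 0.321 without the 2 mice farthest from the median of Per1. Per3 and Cry1 gave r = -0.42 (permutation p = 0.137, adjusted 0.684) and rho = -0.463 (permutation p = 0.105, adjusted 0.525). That r was 0.059 within experiment 1 and -0.748 within experiment 2, and -0.561 without the 2 farthest mice. The other 8 pairs had an r from -0.333 to 0.249.

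The genes most like each member were read from the same centred values over 18 mice and 11215 other genes, as a description. Such extremes are picked from all of those genes, on arrays that share their scaling. For Per1 the highest r belonged to Kif3a (0.89), Fig4 (0.87) and Coa4 (0.82), and the lowest to Kcnn2 (-0.88), Tardbp (-0.79) and Tdp2 (-0.78). Per2 was most like Nrd1 (0.85), Anxa6 (0.84) and D10Wsu102e (0.83), and most opposite to Wdfy2 (-0.84), Kctd14 (-0.84) and Hook3 (-0.83). Per3 was most like Tamm41 (0.88), Lpcat3 (0.87) and Rrm1 (0.86), and most opposite to Hmces (-0.93), Selenoi (-0.92) and Amacr (-0.89). Cry1 was most like Sos1 (0.82), Nop16 (0.81) and Ankrd37 (0.81), and most opposite to Ppm1h (-0.86), Mettl25 (-0.83) and Ifi204 (-0.82). Cry2 was most like Rcc1 (0.83), Atg14 (0.82) and Mybpc3 (0.82), and most opposite to Srsf3 (-0.88), H2-M3 (-0.81) and Ctns (-0.81). No gene of the other clock lists stood among the 3 most like or most opposite genes of any member. The nearest on either side were both for Per3: Wee1 at rank 75 of 11215 (r = 0.76) and Clock at rank 11129 (r = -0.73).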

How the data were processed

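Liver RNA was hybridised to Affymetrix arrays, 18 of single irradiated mice and 2 of pooled control RNA. The authors deposited linear signal intensity computed with MAS5, per the submitters' processing notes, with no version given in the sources used here. Trimmed by 2% at either end, the array means all came to 500.0, so the authors' values had been scaled. Array medians ran from 81.3 to 104.8, correlations between arrays from 0.909 to 0.943, and 0 columns belonged to no sample. The number of arrays limits the precision.

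Values were used as log2(signal + 7.12), the 10th percentile of all signals. Probe sets with a mean log2 value at or above the median of all non-control probe sets (6.37, a signal of 75.5) were tested, 22519 in all. A linear model with dose level and experiment as terms was fitted to all 20 arrays with limma 3.58.1 (lmFit, then eBayes allowing a trend of variance with level) under R 4.3.3, two-sided, with Benjamini-Hochberg adjustment over all probe sets and a threshold of 0.05. Experiments were compared over the 18 irradiated arrays with dose level as a term, and differences between experiments were tested as interactions. The procedure was tested on simulated data. Correlations between genes used 100000 permutations within group. Per mouse, irradiated arrays were set against the pool of their own experiment, and between levels against the mean of the other level in their experiment. The p-values measure the spread between these arrays, most of them single irradiated mice. Each pool was given that same spread in the main model, so p-values against control do not measure the spread among control mice.

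Every member probe set was named. The main probe set of a gene is the one not ending in _s_at or _x_at, with the highest mean. Of the other clock lists, genes were named from the activators, the nuclear receptors and the outputs, and none from the remaining lists. Those named had among the smallest p of their list in a contrast with control. From the likeness ranking the 3 highest and the 3 lowest were named. The members and lists were chosen with earlier results of these data known. Promoter windows came from RefSeq (GRCm38.p6). Replicate numbers recur across the dose levels of an experiment, and of 18 same-numbered pairs 7 had deviations correlated over 0.1 (from -0.154 to 0.316). In experiment 1 same-numbered pairs ran from -0.013 to 0.316, the highest being medium and high mouse 1. Differently numbered pairs there ran from -0.169 to 0.133, the highest being low mouse 3 and high mouse 2. Same-numbered pairs thus leaned higher in experiment 1. In experiment 2 the values ran from -0.154 to 0.200 with the same number and from -0.218 to 0.193 with different numbers. These values do not settle whether the numbers pair the mice, and the main model did not use them. Alternatives changed the pseudocount, filter, normalization, variance trend, probe sets, experiment term, arrays and weight of the pools.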

Additional observations from a re-analysis of the deposited data

Results flagged for a closer look

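Probe set 1421087_at of Per3 had 1 mouse apart from the others of its level. High mouse 1 of experiment 1 lay at -1.69 on the log2 scale against the pool of its experiment, farther from the nearest of the other 5 high mice than Dixon's 95% limit allows. Of 27 groups of 6 mice examined this way it was the only one, where chance gives about 1 in 20.

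Cry2 at high against medium ran opposite ways in the 2 experiments. The mean difference was 0.13 in experiment 1 and -0.18 in experiment 2, a difference between experiments of -0.31 (experiment 2 minus experiment 1), with every high mouse on 1 side of the medium mean in each experiment. The interaction in limma did not pass (adjusted p = 0.998, unadjusted p = 0.292), and 54 such pairs of directions were looked at.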

How the results depend on the processing

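With 2 single pools as controls, contrasts against control carry larger errors than those between dose-rates. Per1 in the high mice of experiment 1 was below the signal the filter asks of a mean, so its differences there depend on the pseudocount. The count of member probe sets past the threshold stayed at 0 for every contrast of dose level and interaction under all alternatives run, except with pools weighted by their mice, which gave 3 at high against control and 1 at low against control. In experiment 2 against experiment 1, 7 became 4 with no filter, 1 with only the top 30% of probe sets (2 of the 9 tested), 3 with 1 probe set a gene (5 tested) and 4 to 7 leaving out 1 array. Per1 (27 alternatives), Per2 1457350_at and Per3 1458176_at (26 each) passed in every one, with an adjusted p of at most 0.000449, 0.000694 and 0.027. The other 4 called lost their call in 7 (Per2 1417602_at), 9 (Per3 1421087_at), 10 (Cry1) and 15 (Per3 1441445_at) alternatives. With the replicate number as a block, 0 members were called in each contrast between dose-rates (Per1 at high against low -1.37, adjusted p = 0.102), and the block changed no call. Signs turned in experiment 1 alone for Cry1 at medium against control (0.0603), Per3 1441445_at (-0.0218) and 1421087_at (-0.3065) at medium against low, and at high against medium for Cry2 (0.126), Cry1 (-0.0206) and Per3 1441445_at (0.0577). In experiment 2 alone they turned at low against control for Per1 (0.0081) and Per2 1457350_at (0.0339), at high against low for Per2 (0.0386), Per2 1457350_at (-0.19) and Per3 1421087_at (0.0998), at medium against low for Per2 (-0.0915) and Cry1 (-0.30), and at high against medium for Per2 (0.13) and Per3 1442243_at (-0.0485). Per3 1421087_at at medium against low also turned with a pseudocount of 1 (-0.0036) and with quantile normalization (-0.0032). Leaving out 1 array, values that changed sign ran from -0.27 to 0.0253 (Cry1) and -0.0837 to 0.69 (Per2 1457350_at) at medium against control, -0.90 to 0.38 (Per1) at low against control, -0.13 to 0.29 (Per3 1441445_at) and -0.0257 to 0.58 (Per2 1457350_at) at high against low, -0.11 to 0.19 (Cry1), -0.0397 to 0.22 (Per3 1441445_at) and -0.1326 to 0.0943 (Per3 1421087_at) at medium against low, and -0.0846 to 0.0133 (Cry2), -0.22 to 0.20 (Per3 1441445_at), -0.0341 to 0.1987 (Per3 1442243_at) and -0.3544 to 0.0225 (Per3 1458176_at) at high against medium. The cause was not tested for any of these.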
